A study of Mus musculus with 6 samples.

Results

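The genes described here are p53, its transcriptional targets, and the BCL2 family members, caspases and other regulators that set the threshold for apoptosis. They were taken by symbol from a fixed list of 35 genes, 17 of them p53 and its targets and 18 apoptosis regulators. Of these, 31 had an average of 10 normalised counts or more across the 6 libraries and were tested, 15 in the p53 list and 16 in the apoptosis list, among 13199 tested genes of 55291 in the table. The other 4 members, Plk2, Perp, Pmaip1 and Bik, were at or near 0 and were not tested. The cells were LLC, a mouse Lewis lung carcinoma line grown in culture without treatment. The Calr KO group (n = 3 libraries) had received plasmids for Cas9 and a guide RNA against calreticulin, and the control group (n = 3), labelled WT, had received Cas9 with a control guide. Both were cultured for 10 days before being plated in triplicate wells, and RNA was taken 48 hours later. The wells of a group came from 1 edited population, so p-values measure the spread between wells and not between independent knockouts. The title of the series names an ER stress response, and the comparison of the death and arrest genes addresses whether that state came with a change in their mRNA.

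p53 is a transcription factor that is kept scarce by the ubiquitin ligase Mdm2 and accumulates after DNA damage and other stress, when it raises genes for cell cycle arrest, repair and death. Its activity is set mostly through protein stability and modification, so the mRNA of Trp53 does not measure it, whereas the mRNA of its targets is its usual readout. In the mitochondrial route of apoptosis, BH3-only proteins neutralise the guardians Bcl2, Bcl2l1 and Mcl1, the effectors Bax and Bak1 then open the outer mitochondrial membrane, and released cytochrome c assembles Apaf1 and caspase 9 into the apoptosome. In prolonged ER stress the transcription factor CHOP, encoded by Ddit3, is known to raise the death receptor gene Tnfrsf10b and the BH3-only gene Bcl2l11. Caspases are made as inactive precursors and act after cleavage, which RNA does not show.

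The libraries summed to between 14040692 and 14099985 normalised counts, an estimated 13565886 to 14920619 reads. Calr itself had 4379 ± 141 normalised counts in Calr KO against 10650 ± 426 in control (SD, n = 3; log2 change -1.28, limma adjusted p = 7.9e-07), so transcript remained. Hspa5, the ER chaperone BiP, had 29460 ± 1697 against 20770 ± 971 (log2 change 0.50, limma adjusted p = 0.00135), which shows the ER chaperone change in the libraries in which the genes below were measured. Whether the p53 protein of these cells is functional was not measured. Of the 5 genes taken as carcinoma markers Krt8, Krt18 and Vim were present, though Vim is not specific to carcinoma cells. Epcam was listed at 0 in all 6 libraries and Cdh1 lay between 0 and 4.98 normalised counts. The 8 leukocyte markers, carried by Cd68, summed to 64.0 to 121 in Calr KO and 75.5 to 94.2 in control. Only 1 of these 8 had a mean of at least 10. The 5 endothelial markers summed to 47.2 to 61.4 and 38.3 to 51.0, and the 6 fibroblast and smooth muscle markers, carried by Pdgfra, to 2148 to 2489 and 2011 to 2483. Single markers differed more than these sums. Dcn, the matrix proteoglycan decorin, had 33.2, 27.9 and 34.5 in Calr KO against 12.04, 16.7 and 17.7 (log2 change 1.01, unadjusted p = 0.00506, limma adjusted p = 0.312), with no overlap. Cdh5, of endothelium, had 6.80, 5.91 and 37.4 against 3.59, 2.98 and 4.17, also with no overlap and with 1 Calr KO library far above the rest. Kdr, also of endothelium, and Des went the other way, with log2 changes of -0.32 and -0.39 and overlapping groups. Of the tested endothelial markers 1 was higher in Calr KO and 1 lower, and of the tested fibroblast and smooth muscle markers 3 and 2. Among untested leukocyte markers, Ptprc was lower (0 in each Calr KO library against 0.591 to 6.12). Cd79a was higher (6.22 to 7.18 against 0 to 5.98). Among the carcinoma markers Vim had 36380 ± 1095 against 39340 ± 1323 (log2 change -0.11, limma adjusted p = 0.278) and Krt8 4770 ± 136 against 4472 ± 144 (log2 change 0.09, limma adjusted p = 0.525). The 5 carcinoma markers, carried by Vim, summed to 40250 to 42620 in Calr KO and 43220 to 45800 in control, with no overlap. The part of these markers in the results below was not tested.

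The p53 protein binds a pair of copies of a decamer, and stretches with a match to this p53 decamer consensus are shown because they mark which members carry such letters close to their start site. RefSeq promoter windows on GRCm38.p6, reaching from 250 bases before to 50 after a start site, were available for 28 of the 35 members. A decamer was found in 7 of 13 p53 list members (53.8%) and in 2 of 15 apoptosis list members (13.3%, Bmf and Birc5), against 9.55% of 27025 genes with a window. The consensus is its own reverse complement, so 1 search covers both strands. Each stretch below is written 5′ to 3′ on the strand of the gene, with the decamer in capitals.
Cdkn1a: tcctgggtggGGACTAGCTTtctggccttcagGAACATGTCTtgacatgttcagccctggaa
Mdm2: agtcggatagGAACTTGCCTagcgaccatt
Trp53: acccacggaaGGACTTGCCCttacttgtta
Ccng1: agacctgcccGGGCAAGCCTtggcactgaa
Bax: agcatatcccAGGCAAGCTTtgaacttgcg
Sesn1: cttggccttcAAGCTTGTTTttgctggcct
Aen: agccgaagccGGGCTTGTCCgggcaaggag
The Cdkn1a stretch (chr17:29090896-29090957, plus strand) holds 2 decamers with 12 bases between them, beginning 73 and 51 bases before one of the start sites of the gene. Only exact matches are in capitals. The decamer-length run directly after the second decamer misses the consensus at its first letter only and stays in lower case. Which of these letters p53 binds was not tested. A pair with at most 13 bases between its decamers was found in 20 of the 27025 genes (0.074%), and Cdkn1a was the 1 member among them. The Mdm2 stretch lies at chr10:117710925-117710954 (minus strand), that of Trp53 at chr11:69580274-69580303 (plus), that of Ccng1 at chr11:40755452-40755481 (minus) and that of Bax at chr7:45467080-45467109 (minus). Those of Sesn1 and Aen lie at chr10:41887256-41887285 and chr7:78895927-78895956 (plus). The 7 genes that carry these letters had log2 changes between -0.14 and 0.11 in Calr KO, and the 5 tested p53 list genes without a match in their windows had changes between -0.36 and 0.29. The 7 with a match all had a mean of at least 150 normalised counts, whereas Bbc3, Btg2, Eda2r and Fas among the others lay below it, where errors are larger. A match describes letters in the window and does not show binding, and no match says only that these letters are absent from it.

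No member passed the test in either direction. With limma and Benjamini-Hochberg adjustment over all 13199 tested genes, 0 of 15 p53 list members and 0 of 16 apoptosis list members had an adjusted p under 0.05, against 0.28% of all tested genes, and the smallest adjusted p of a member was 0.381, for Xiap. The count was also 0 in both lists with limma's voom weights. At an unadjusted p under 0.05 there were 3 of 31 members (9.68%), Xiap and Cdkn1a with lower and Bad with higher values in Calr KO, against 8.88% of all tested genes. The libraries of the groups did not overlap in 4 members that were higher in Calr KO (12.9%, against 7.57% of all tested genes) and in 1 that was lower (3.23%, against 7.28%). With 1 to 4 genes behind each share, none is read as a result about the members. The median log2 change was -0.03 in the p53 list and -0.04 in the apoptosis list, where all tested genes had a median of 0.

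The intervals around these changes show what the data could have missed. The 95% interval of the log2 change lay within 0.5 of 0 on both sides for 23 of the 31 members, and within 1 of 0, a doubling or halving, for 29 of them. The exceptions at the wider limit were Fas and Bmf. Precision followed the level of the gene. In the 7 members with a mean under 150 normalised counts the SE of the log2 change was 0.15 to 0.40, and in the 24 members above that level it was 0.03 to 0.15. The sizes of the changes followed the same split, with a median size of 0.29 in the 7 low members and 0.07 in the 24 others.

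**Figure D1:**
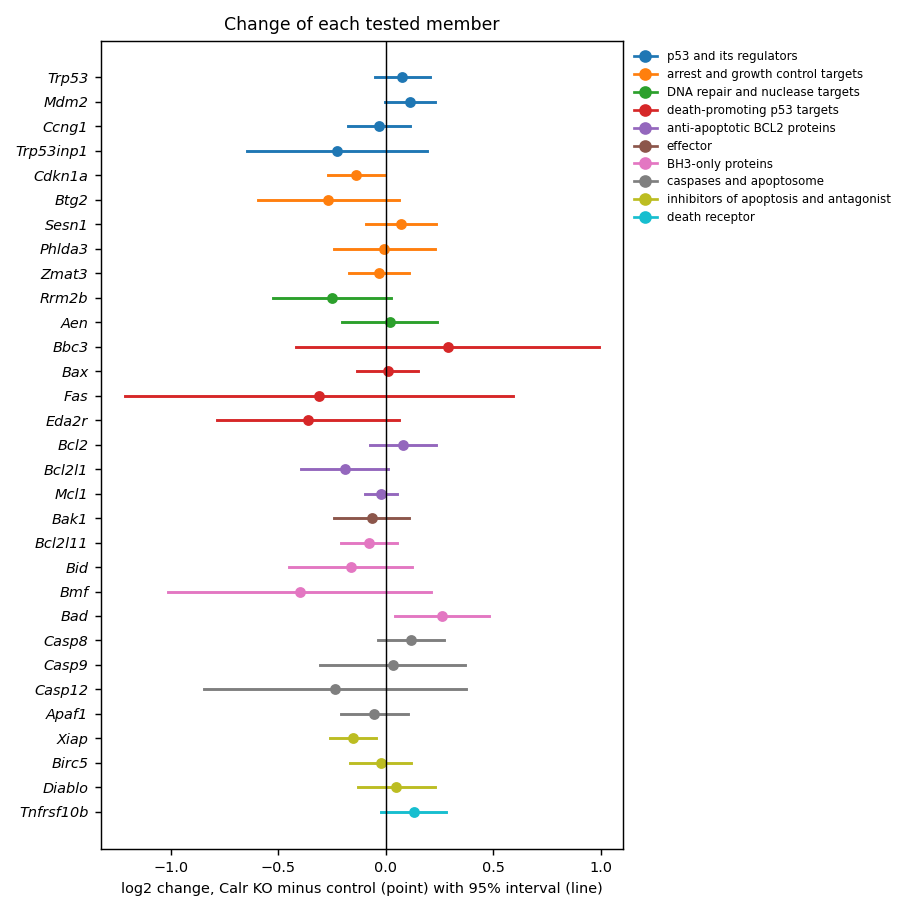
Log2 change (Calr KO minus control, x axis) of each of the 31 tested members, with its 95% interval as a line and colours for the role of the gene. The intervals of Xiap, Cdkn1a and Bad leave out 0 before adjustment, and the longest intervals belong to the low members Fas, Bbc3, Casp12 and Bmf.

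**Figure D2:**
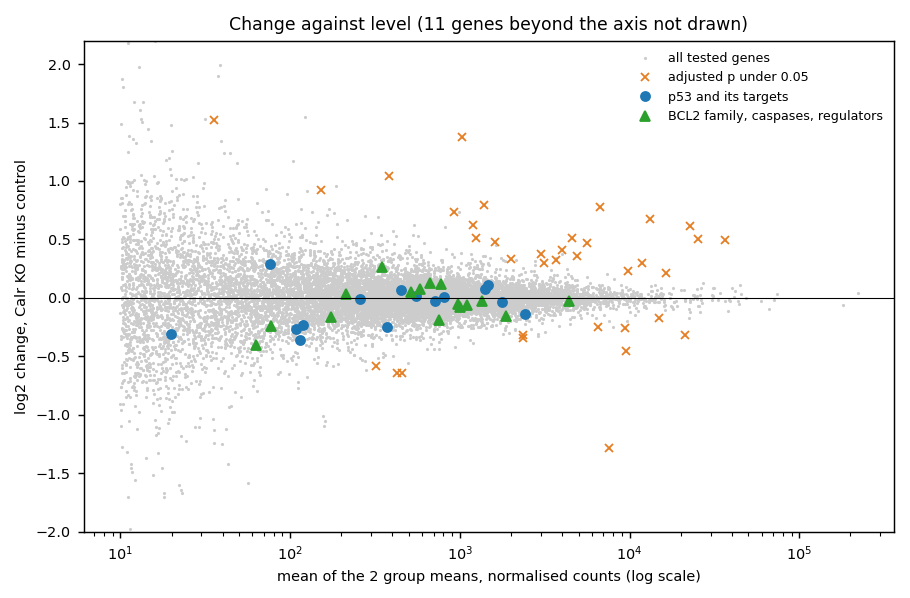
Log2 change (y axis) against the mean level (x axis, log scale) for all 13199 tested genes in grey, with the p53 list as circles, the apoptosis list as triangles and genes with an adjusted p under 0.05 as crosses. The members lie inside the grey cloud at every level, and 11 genes outside the axis from -2 to 2.2 are not drawn.

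Among p53 and its regulators, Trp53 transcript was present in every library and gave no call. Trp53 had 1411, 1394 and 1514 normalised counts in the Calr KO libraries and 1394, 1408 and 1291 in the controls. The groups overlapped, and the log2 change was 0.08 (SE 0.06, limma adjusted p = 0.759). Mdm2, which encodes the ligase that degrades p53 and is itself induced by p53, had 1512, 1487 and 1572 in Calr KO against 1345, 1459 and 1422 (log2 change 0.11, 95% interval -0.003 to 0.23, limma adjusted p = 0.578). All 3 Calr KO libraries were above all 3 controls for Mdm2, but the difference did not pass. Ccng1, cyclin G1, a p53 target that recruits a phosphatase to Mdm2, had 703 ± 24.9 against 718 ± 28 (log2 change -0.03). Trp53inp1, a nuclear cofactor of p53, had 111 ± 26.7 against 128 ± 12.3 (log2 change -0.23, limma adjusted p = 0.777).

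The arrest and growth control targets included the most abundant p53 target by count, Cdkn1a. Cdkn1a encodes p21, which inhibits cyclin-dependent kinases and is the classical readout of p53 activity (ENSMUSG00000023067.14, plus strand of chromosome 17, positions 29090976 to 29100727 on GRCm38, protein coding). Its Calr KO libraries held 2466, 2260 and 2184 normalised counts and its controls 2654, 2555 and 2393. The highest Calr KO library lay above the lowest control, so the groups overlapped. The log2 change was -0.14 (SE 0.06, 95% interval -0.27 to -0.01), with an unadjusted p of 0.0401 and a limma adjusted p = 0.536. An increase of Cdkn1a mRNA thus lies outside the 95% interval, which is not adjusted for the number of genes.
Btg2, an antiproliferative factor that promotes mRNA deadenylation, had 97.8 ± 7.73 normalised counts against 118 ± 13.7 (log2 change -0.27, limma adjusted p = 0.652). Sesn1, sestrin 1, which restrains mTORC1, had 459 ± 19.6 against 437 ± 6.91 (log2 change 0.07), and Phlda3, an inhibitor of AKT signalling, 256 ± 22.9 against 257 ± 15.9 (log2 change -0.01). Zmat3, an RNA-binding zinc finger protein, had 1754 ± 59.7 against 1796 ± 137 (log2 change -0.03). The 95% interval of Zmat3 reached from -0.17 to 0.11 and that of Phlda3 from -0.24 to 0.23. Of the repair and nuclease targets, Rrm2b, the p53-inducible ribonucleotide reductase subunit that supplies nucleotides, had 340 ± 34.3 against 405 ± 58.7 (log2 change -0.25, limma adjusted p = 0.606), and the change of Rrm2b was -0.14 without control replicate 2. The exonuclease gene Aen had 640, 530 and 507 in Calr KO against 543, 521 and 585, which overlap (log2 change 0.02).

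The p53 targets that promote death were split between well measured and poorly measured genes. Bax, the pore-forming effector, had 832, 795 and 789 normalised counts in Calr KO and 833, 756 and 814 in control. These libraries overlapped fully, and the log2 change was 0.01 with a 95% interval of -0.13 to 0.15. The sign of this value turned with upper-quartile scaling, and also when Calr KO replicate 1 or control replicate 2 was dropped. Bbc3, which encodes the BH3-only protein PUMA, had 73.8, 91.3 and 79.6 in Calr KO and 38.2, 102 and 74.6 in control cells. The log2 change was 0.29 with a 95% interval of -0.42 to 0.99. The low value in control replicate 1 set the sign for Bbc3, since the change was -0.10 without that library. Eda2r, a receptor of the TNF receptor family, had 94.4, 92.5 and 111 against 116, 168 and 106 (log2 change -0.36, limma adjusted p = 0.636). Control replicate 2 stood above the other 5 libraries for Eda2r, and the log2 change was -0.16 without it. Fas, the receptor of Fas ligand, was the lowest tested member, with 17.9 ± 7.06 against 21.9 ± 7.34. Its libraries held 9.77, 21.5 and 22.5 in Calr KO against 29.3, 14.7 and 21.8, which overlap. The 95% interval of the log2 change of Fas, -1.21 to 0.59, leaves room for more than a doubling or halving in the lower direction only. Calr KO replicate 1 set the sign for Fas, since the change was 0.05 without that library.

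**Figure D3:**
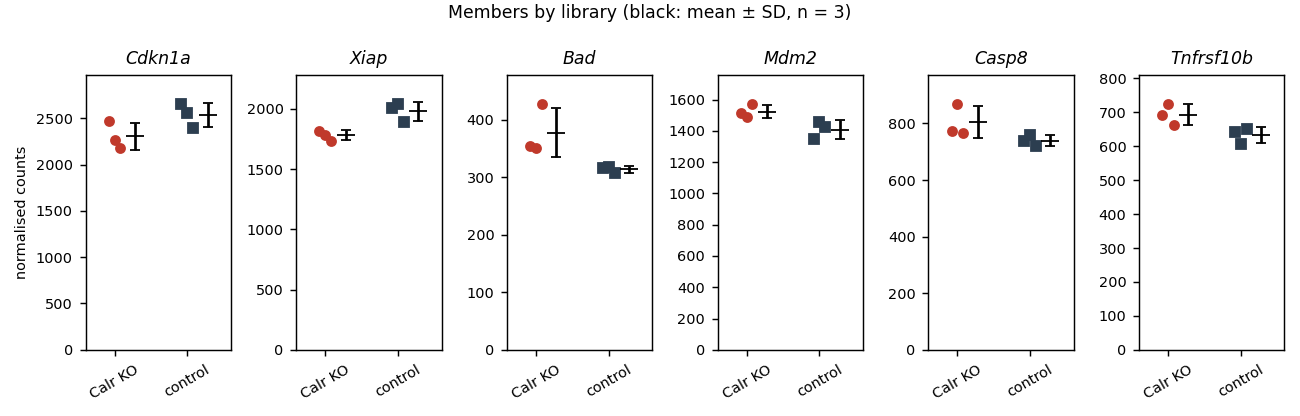
Normalised counts (y axis, from 0) in each library for the 3 members with an unadjusted p under 0.05 (Cdkn1a, Xiap and Bad) and the 3 further members whose groups did not overlap (Mdm2, Casp8 and Tnfrsf10b), with the mean ± SD of 3 libraries in black. The groups are apart in all but Cdkn1a, and the differences are small beside the levels.

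The 3 anti-apoptotic BCL2 genes were all expressed, and none passed. Mcl1, a short-lived guardian protein that restrains Bak1 and BH3-only proteins, had 4372, 4322 and 4293 normalised counts in Calr KO and 4286, 4426 and 4482 in control. Its log2 change of -0.02 had the narrowest interval of the members (95%, -0.10 to 0.05). Bcl2l1, whose main product is BCL-XL, had 799, 669 and 638 in Calr KO against 767, 841 and 786 (log2 change -0.19, 95% interval -0.39 to 0.01, limma adjusted p = 0.589). Calr KO replicate 1 lay among the controls for Bcl2l1, and the other 2 Calr KO libraries lay below all controls. Bcl2 had 596 ± 13.2 against 564 ± 27.6 (log2 change 0.08). The effector Bak1 had 974, 1116 and 1127 against 1032, 1193 and 1140 (log2 change -0.07, 95% interval -0.24 to 0.11). The log2 difference of Bax over Bcl2 within a library, a commonly used index, was 0.43 ± 0.07 in Calr KO and 0.51 ± 0.14 in control (SD, n = 3), and that of Bcl2l11 over Mcl1 was -2.15 ± 0.05 and -2.09 ± 0.06. In both index pairs the libraries of the groups overlapped.

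Of the 6 BH3-only genes in the apoptosis list 4 were tested, in addition to Bbc3 given above, and none passed. Bcl2l11, which encodes BIM, a binder of all guardian proteins, had 946, 1006 and 973 normalised counts in Calr KO and 1007, 1081 and 1002 in control cells, for a log2 change of -0.08 (limma adjusted p = 0.760, 95% interval -0.21 to 0.05). Bid, which links death receptors to mitochondria once cleaved, had 165 ± 20.9 against 184 ± 11.3 (log2 change -0.16). Bmf had 52.8 ± 9.72 against 72.2 ± 23.9 (log2 change -0.40, 95% interval -1.01 to 0.21), a low level. The change of Bmf was -0.20 without control replicate 3 and -0.70 without control replicate 2.
Bad, a BH3-only protein that growth factor signalling holds inactive by phosphorylation (ENSMUSG00000024959.14, plus strand of chromosome 19, from 6941861 to 6951899 on GRCm38) had 354, 352 and 427 in Calr KO against 316, 317 and 307. The controls lay close together, all 3 Calr KO libraries were above them, and Calr KO replicate 3 stood highest. The log2 change was 0.26 (SE 0.10, unadjusted p = 0.0243, limma adjusted p = 0.486), 1.2-fold. Without Calr KO replicate 3 the log2 change of Bad was 0.17. The exons of Bad share 524 bases, 20.5% of their length, with Gpr137 on the opposite strand, and no use of strand in counting is stated in the sources used here. Gpr137 had 217, 229 and 160 in Calr KO against 188, 233 and 291. Calr KO replicate 3, the highest for Bad, was the lowest for Gpr137. The part of Gpr137 in the values of Bad was not tested. The exons of Bid overlap those of Bcl2l13, also on the opposite strand, over 17.7% of their length. Bcl2l13 was the more abundant gene, with a mean of 977 normalised counts against 175 for Bid. It had 861, 1095 and 796 in Calr KO against 896, 983 and 1232 (log2 change -0.18). Its part in the values of Bid was not tested.

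Of the caspases and the apoptosome, none passed. Casp8, the initiator caspase of death receptors, had 774, 869 and 767 normalised counts in Calr KO against 739, 758 and 721. The groups did not overlap for Casp8, and the log2 change was 0.12 (SE 0.07, limma adjusted p = 0.685), or 0.06 without Calr KO replicate 2. Casp9, the initiator of the mitochondrial route, had 216 ± 44.7 against 209 ± 16.7 (log2 change 0.03), and Apaf1, the scaffold of the apoptosome, 954 ± 66.3 against 989 ± 47.7 (log2 change -0.05, 95% interval -0.21 to 0.10). The Calr KO libraries of Apaf1 held 983.7, 877.8 and 999.8 and its controls 936.4, 1029.7 and 1000, which overlap. Casp12, a rodent caspase located at the ER and studied as a mediator of ER stress death, had 53.2, 96.6 and 62.1 in Calr KO against 86.4, 58.9 and 103. These values interleave, and the 95% interval of the log2 change, -0.85 to 0.37, is wide because Casp12 was low.

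Xiap had the smallest p of all members. It encodes an inhibitor of apoptosis protein that binds and blocks caspases (ENSMUSG00000025860.15, plus strand of chromosome X, positions 42059679 to 42109656 on GRCm38). Its Calr KO libraries held 1821, 1788 and 1738 normalised counts and its controls 2008, 2041 and 1893. All 3 Calr KO libraries were below all 3 controls. The log2 change was -0.15 (SE 0.05, 95% interval -0.26 to -0.04), a 1.11-fold lower mean, with an unadjusted p of 0.0104 and a limma adjusted p = 0.381. By p-value, Xiap ranked 361 among the 13199 tested genes. Diablo, which encodes the mitochondrial protein that displaces XIAP from caspases, had 527 ± 35 against 509 ± 25.4 (log2 change 0.05, 95% interval -0.13 to 0.23). Birc5, survivin, an inhibitor of apoptosis family member that acts in chromosome segregation and is made mainly in dividing cells, had 1336 ± 106 against 1356 ± 13.8 (log2 change -0.02). Beside it, 0 of 20 proliferation genes passed. At an unadjusted p under 0.05 there were 4 of them, against 8.88% of all tested genes, and these were higher in Calr KO: Top2a by 0.06, Cdk1 by 0.12, Cdc20 by 0.10 and Cenpf by 0.13 on the log2 scale. The groups did not overlap in 6 of the 20, each higher in Calr KO, against 7.57% of all tested genes. The summed level of the 20 was 72790 to 73190 normalised counts in Calr KO and 70480 to 73610 in control.

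The death genes linked to CHOP gave no call. Tnfrsf10b, the mouse TRAIL receptor, had 692, 725 and 662 normalised counts in Calr KO against 641, 606 and 652. All 3 Calr KO libraries were above the controls, and the log2 change was 0.13 (SE 0.07, 95% interval -0.02 to 0.28, limma adjusted p = 0.630). Bcl2l11, given above, was at -0.08. Ddit3 had 488, 471 and 426 in Calr KO against 454, 410 and 486, which overlap (log2 change 0.04, limma adjusted p = 0.936). Atf4, the transcription factor upstream of it, had 11140 ± 513 against 11370 ± 348 (log2 change -0.03). Of 12 ER stress genes, most of them from the PERK-ATF4-CHOP arm and with Ern1 from the IRE1 arm, 0 passed over all genes. At an unadjusted p under 0.05 there were 3 of the 12, against 8.88% of all tested genes: Atf3 and Ern1 had log2 changes of 0.19 and 0.13, and Ddit4 had -0.19.

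Per kilobase of annotated exon, which allows levels of different genes to be compared, Mcl1 was highest in control cells, at 1290 ± 29.5 normalised counts per kilobase (SD, n = 3). Cdkn1a came second in that scale, at 713 ± 37.1, followed by Bax at 508 ± 25.4 and Bak1 at 466 ± 34.1. The control libraries of Bax and Bak1 overlapped, so their order is within the spread. Birc5 at 399 ± 4.05, Trp53 at 337 ± 15.9 and Mdm2 at 277 ± 11.4 came next. Among guardians Bcl2l1 had 174 ± 8.39 and Bcl2 61.6 ± 3.02 per kilobase, both below Mcl1. Among BH3-only genes the order in control was Bcl2l11 at 128 ± 5.56, Bad at 123 ± 2.10, Bid at 51.9 ± 3.17, Bbc3 at 33.7 ± 15.1 and Bmf at 13.7 ± 4.54. The control libraries of Bcl2l11 and Bad did not overlap, but in Calr KO their order was reversed, at 121 ± 3.77 and 148 ± 16.8. The SDs do not cover error in exon length, and Bad shares exon bases with Gpr137, so this pair is not ranked. In Calr KO cells Mcl1 had 1270 ± 11.7, Cdkn1a 648 ± 41.1 and Bax 511 ± 14.9 per kilobase, the same leading order.

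**Figure D4:**
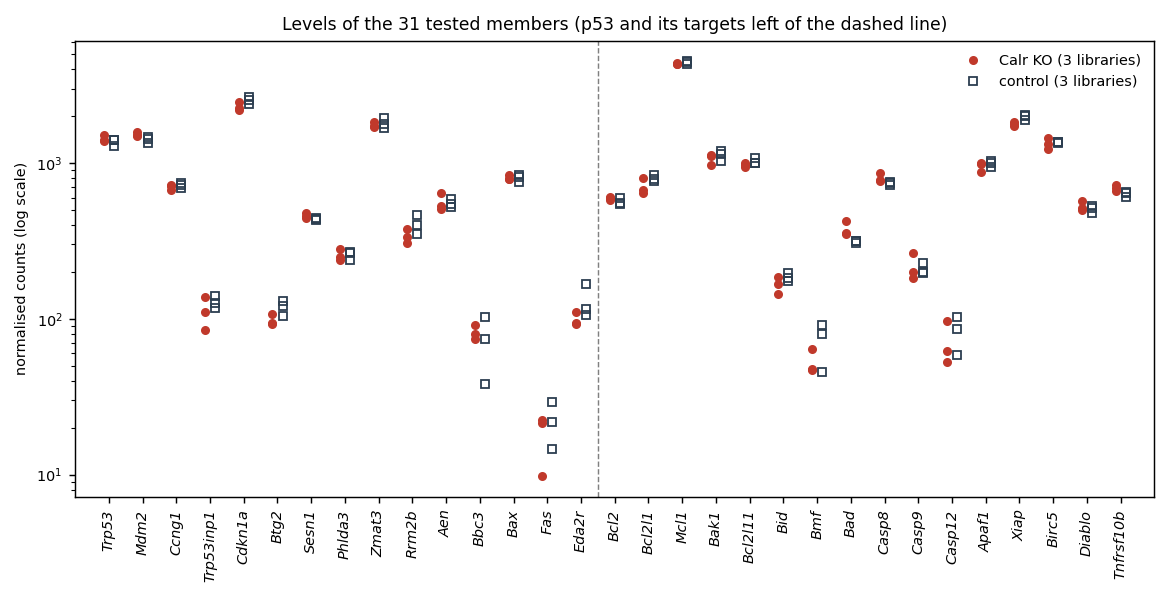
Normalised counts (y axis, log scale, not divided by length) of the 31 tested members in each Calr KO library (filled circles) and control library (open squares). Levels range from Fas, near 20, to Mcl1, at 4286 to 4482 in control, and the spread between wells widens below 150.

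The 4 members left out by level were at or near 0 in both groups. Plk2, a polo-like kinase gene induced by p53, and Bik, a BH3-only gene of the ER membrane, were listed at 0 in all 6 libraries. Perp, a p53 target at cell junctions, was listed above 0 in 1 control library, at 0.996, about the value of 1 read. Pmaip1, which encodes the BH3-only protein NOXA, was listed at 1.78 and 0.541 in 2 control libraries and at 0 in the others. A count of 0 allows up to 3 reads, which is 2.84 to 3.11 normalised counts in a library. An exact 0 can also come from a failed estimate. Of 14 genes used by every cell, such as Actb and Tbp, none was at 0 in any library, and Tbp had 969 to 1146 normalised counts.

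Averaged over its 15 tested members, the p53 list was lower in each Calr KO library than in each control, by little. The mean log2 deviation of the members from their own 6-library means was -0.074, -0.004 and -0.026 in Calr KO and 0.010, 0.075 and 0.020 in control. The 16 apoptosis members gave -0.063, -0.006 and 0.001 against 0.027, -0.021 and 0.061, which overlap. No test is given for these averages, since the members were chosen with results of these data known. The separation in the p53 list came with its 5 low members. Over the 10 members with a mean of at least 150, the averages were 0.012, -0.032 and -0.005 in Calr KO and 0.004, 0.021 and 0 in control, which overlap, and the mean log2 change was -0.02 instead of -0.07. The 5 members under that level are Trp53inp1, Eda2r, Fas, Btg2 and Bbc3. In all, 19 of 31 members had a log2 change below 0 (61.3%, against 49.9% of all tested genes).

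**Figure D5:**
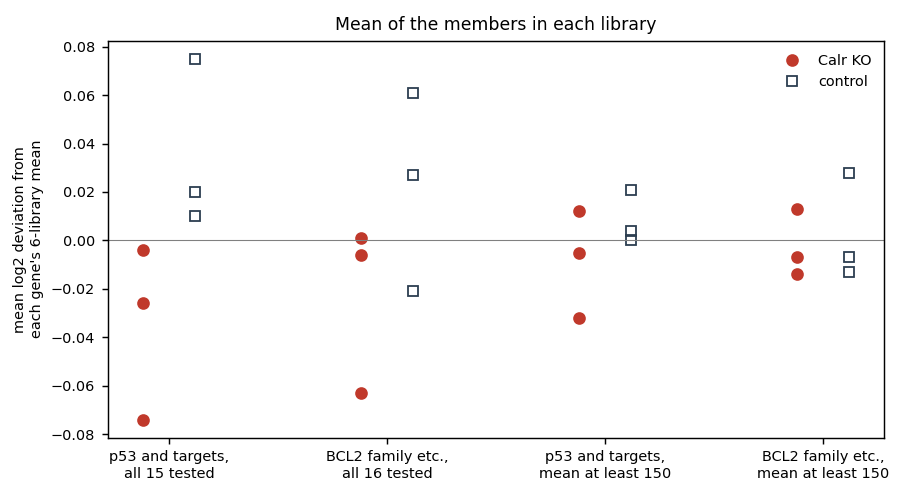
Mean log2 deviation of the members from their own 6-library means (y axis) in each library, for each list with all tested members and with those at a mean of at least 150. Calr KO circles and control squares are apart only for the full p53 list and overlap in the other 3 columns.

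Further genes of the same pathways gave no call either. Of 32 other p53 pathway genes 31 were tested, with 0 passing in either direction, against 0.28% of all tested genes. At an unadjusted p under 0.05 there were also 0, against 8.88% of all tested genes, and the median log2 change was 0.01. The 31 included Mdm4, the inhibitory partner of Mdm2, with 2712 ± 120 normalised counts against 2823 ± 158, and the growth arrest gene Gadd45a, with 582 ± 48.8 against 625 ± 113. Cdkn2a, whose locus encodes an inhibitor of Mdm2, was listed at 0 in all 6 libraries and was the 1 gene of that list not tested. Of 32 other apoptosis genes 26 were tested, with 0 passing and a median of 0.02. In that list an unadjusted p under 0.05 was found for Casp2, an initiator caspase (672 ± 92.1 against 827 ± 64.9, log2 change -0.31, limma adjusted p = 0.454), and for Parp1, a caspase substrate (4974 ± 55.1 against 4497 ± 486, log2 change 0.15, limma adjusted p = 0.551). The groups overlapped for both, and over all tested genes the share at an unadjusted p under 0.05 was 8.88%. Groups did not overlap in 1 higher and 1 lower gene of the 31, and in 1 higher and 2 lower of the 26. Over all tested genes these shares were 7.57% and 7.28%.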

How the data were processed

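RNA-seq was made from 3 Calr KO and 3 control wells of LLC cells. Values are a normalised signal, which the authors obtained from gene counts with DESeq2, as stated in the labels. Per the submitters' processing notes the tools were DESeq2 1.34.0, Salmon 0.14.1 and STAR 2.6.1d on mm10, with no roles stated; the annotation and any use of strand are not given in the sources used here. Between 43.9% and 61.5% of values under 100 reads were whole multiples of the value of 1 read (tolerance 0.02), so the table was not turned back into reads and no count test was used. PCR copies are not told apart, so floors cover counting error only.

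Genes averaging at least 10 were tested on log2(value + 1) using limma 3.58.1 (R 4.3.3) with a mean-variance trend. Tests were two-sided, p-values were adjusted by Benjamini-Hochberg over all 13199 genes, and the threshold was 0.05. The pseudocount makes changes of low genes look smaller. The fit was tested on simulated data with normal noise whose spread followed the level, so that test took the variance trend as given. Coordinates and exon lengths are from GENCODE M21 on GRCm38, the assembly of mm10. The members and lists were chosen with earlier results of these data known. All 35 members are accounted for; library values are given for members with an unadjusted p under 0.05 and the most abundant of each role, and other library values were picked once seen. From the other lists, genes with an unadjusted p under 0.05, Ddit3 and Atf4 are named. Hspa5, Cdh5, Ptprc, Cd68, Cd79a, Kdr, Des, Bcl2l13, Gpr137, Mdm4, Gadd45a, Cdkn2a and the reference genes were picked once their values were known. The values of some single genes of the other lists are left out. Alternatives are given in the closing section.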

Additional observations from a re-analysis of the deposited data

How the results depend on the processing

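The counts of called members were 0 in both member lists and in both lists of further genes under all 16 alternatives. These changed the pseudocount, the filter, the scaling, the variance prior or the weights (voom), blocked on the replicate number, or dropped 1 library. The count over all tested genes, 37, was 2 when the variance trend was off and 20 to 34 with a library left out. The lowest counts were 20 (Calr KO replicate 1 dropped), 21 (Calr KO replicate 3) and 22 (control replicate 2 or 3). With the replicate block it was 26. Same-numbered libraries of the groups had correlations of deviations of -0.056, -0.011 and 0.001, so the numbers give no pairing. The median log2 change of the apoptosis members was -0.08 to -0.008 with a library left out, the former on dropping Calr KO replicate 3, against -0.04 with all libraries; that of the p53 members was -0.06 to -0.02. The mean log2 change of the p53 members was -0.017 with members under a mean of 150 removed, a setting chosen after seeing the data. Over the alternatives the adjusted p of Xiap was 0.341 to 0.641, of Bad 0.449 to 0.740 and of Cdkn1a 0.437 to 0.761, with no change of sign. Upper-quartile scaling shifted the median of all genes by -0.01 and turned the sign of Bax. The log2 change of Bax was also negative with Calr KO replicate 1 dropped (-0.016) or control replicate 2 dropped (-0.033). Omission of a single library turned the sign of Bbc3, Fas, Phlda3, Zmat3, Aen, Bak1, Casp9, Birc5, Apaf1 and Diablo as well. It brought Ccng1 to 0. Low level limits Fas, Bmf, Casp12 and Bbc3.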

Other observations

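Around the silent members and Cdkn2a the neighbouring genes differed in level, and are named because of their values. Bik lay between Ttll1, with a mean of 291 normalised counts over the 6 libraries, and Mcat, with 220, and itself had 0. Mtap, the next protein-coding gene before Cdkn2a on chromosome 4, had a mean of 2900, while Cdkn2b, the next gene after it, was listed at 0 in all 6 libraries. The values of Mtap were 2881, 2830 and 3039 in Calr KO and 2863, 2907 and 2873 in control.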
